A study of Mus musculus with 24 samples.

Results

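The genes described here encode the subunits of the constitutive proteasome and the proteins that activate, inhibit or assemble it. They were taken as all genes of the array whose symbol is Psm followed by a letter from a to g and a number, without Psmb8, Psmb9 and Psmb10, which encode the inducible catalytic subunits of the immunoproteasome. Of 37074 gene names on the array, 44 matched, and 43 of these were measured well above background. The exception was Psmb11, the catalytic subunit of thymic epithelium, whose probe was well above background on 0 of 24 arrays. By role, the measured genes comprised 8 of the alpha ring of the core, 7 of its beta ring, 9 of the base, 8 of the lid, 3 activators and 8 assembly chaperones and inhibitors. Psma8, an alpha subunit best known from the testis, passed the filter on all 24 arrays and was kept although it is not a general subunit. Psme2, the partner of Psme1, had no probe under that name. The array holds probes named Psme2b, which the rule did not take, and whether they report Psme2 was not tested. The values of Psme2b are given beside those of Psme1.

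The liver of 24 mice was measured, with 1 array and 1 right lobe per mouse. All mice were labelled as females of the inbred strain C57BL/6JRcc, were housed singly and received their diet from 3 weeks to 6 weeks of age, and all were killed during the light phase after food had been withdrawn. Both diets gave 16% of energy as fat, 20% as protein, 32% as starch and 32% as monosaccharides. In 12 mice the monosaccharide was glucose (GLU), and in the other 12 it was glucose with an equal part of galactose (GLU+GAL). The Cy5 dye carried the RNA of a mouse and Cy3 a pool of all of them, so each value is a log2 ratio of liver over pool, and a difference of 1 is a doubling. In bulk liver, fewer cells of a type and less RNA per cell cannot be told apart.

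The share of spots well above background in Cy5 ran from 46.6% to 51.3% over the arrays. All 10 hepatocyte markers were well above background; 9 of them had a lower mean in GLU+GAL, with a median difference of -0.12, and their part in the differences given here was not tested. In the pool channel, the median correlation of array GLU+GAL 4 with the other arrays was 0.968, against 0.99 to 0.998 for the remaining 23, and its mean over the skeletal muscle markers was 0.79, with 0.31 for the next highest array. Mouse GLU+GAL 12 went against its label, with a log2 ratio of 2.35 for the Y-linked gene Eif2s3y and of -0.79 for Xist. Without GLU+GAL 4 the median difference of the proteasome genes between diets was -0.029 and without GLU+GAL 12 it was -0.041, against -0.041 with all mice. Other mice moved it more, to -0.019 without GLU+GAL 3, -0.026 without GLU 5 and -0.059 without GLU+GAL 6.

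The proteasome degrades proteins that carry ubiquitin chains. Its core is a barrel of alpha and beta rings, in which Psmb5, Psmb6 and Psmb7 carry the catalytic sites. The regulatory particle caps the barrel: its base holds the ATPases Psmc1 to Psmc6, which unfold the substrate and feed it to the core, and its lid holds Psmd14, which removes the ubiquitin chain. The complex contains its subunits in fixed proportion, and its genes are known to be transcribed together, with the transcription factor Nrf1 (gene Nfe2l1) raising them when proteasome activity falls short. Interferon induces Psmb8, Psmb9 and Psmb10, which replace Psmb5, Psmb6 and Psmb7 respectively in newly assembled cores, and also the activator made of Psme1 and Psme2.

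The stretches upstream of the transcription start of 5 of these genes are shown, in RefSeq sequence of build GRCm38.p6. The first 3, Psmd6, Psmd4 and Psma3, belonged to the genes that followed the remaining subunits most closely from mouse to mouse. Psmd12 is shown because it holds an antioxidant response element core, the site bound by Nrf1 and its relative Nrf2. Psme1 is shown because its correlation with the other subunits was near 0. Each stretch holds the 250 bases before the start, written along the gene's own strand, and capitals mark the letters searched for: the antioxidant response element core TGACNNNGC, the Ets motif CCGGAAG, the CCAAT box and the GC box GGGCGG, on either strand. None of these matches overlapped another in the stretches shown.
Psmd6 (chr14:14120946-14121195, minus strand): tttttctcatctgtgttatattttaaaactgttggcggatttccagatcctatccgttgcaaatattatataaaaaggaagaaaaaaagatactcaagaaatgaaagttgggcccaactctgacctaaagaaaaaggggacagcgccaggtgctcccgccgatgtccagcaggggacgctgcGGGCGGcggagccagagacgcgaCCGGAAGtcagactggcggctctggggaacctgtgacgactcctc
Psmd4 (chr3:95042615-95042864, minus strand): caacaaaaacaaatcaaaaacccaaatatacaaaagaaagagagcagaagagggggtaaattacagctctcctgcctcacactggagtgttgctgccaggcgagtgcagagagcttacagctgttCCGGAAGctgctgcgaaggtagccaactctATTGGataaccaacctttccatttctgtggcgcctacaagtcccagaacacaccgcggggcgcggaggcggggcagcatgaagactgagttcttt
Psma3 (chr12:70974373-70974622, plus strand): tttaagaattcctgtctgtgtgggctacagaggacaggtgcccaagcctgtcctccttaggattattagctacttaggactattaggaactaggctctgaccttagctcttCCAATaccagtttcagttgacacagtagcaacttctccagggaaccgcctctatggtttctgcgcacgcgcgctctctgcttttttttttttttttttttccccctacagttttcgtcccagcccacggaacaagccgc
Psmd12 (chr11:107479278-107479527, plus strand): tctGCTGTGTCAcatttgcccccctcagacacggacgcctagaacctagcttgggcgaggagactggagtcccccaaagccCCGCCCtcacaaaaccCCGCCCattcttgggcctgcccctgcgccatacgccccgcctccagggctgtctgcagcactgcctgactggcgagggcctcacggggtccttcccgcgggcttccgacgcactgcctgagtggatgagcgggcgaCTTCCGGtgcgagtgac
Psme1 (chr14:55578244-55578493, plus strand): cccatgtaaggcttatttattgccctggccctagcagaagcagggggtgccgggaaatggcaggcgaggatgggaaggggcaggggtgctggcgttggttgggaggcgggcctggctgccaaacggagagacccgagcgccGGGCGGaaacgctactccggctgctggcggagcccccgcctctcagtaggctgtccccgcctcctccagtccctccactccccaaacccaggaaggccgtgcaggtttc

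A RefSeq upstream stretch was at hand for 36 of the 44 genes. The Ets motif lay in 12 of these 36 (33.3%), against 7.83% of 27025 genes with a stretch of the same length. Among the 12 were the base genes Psmc1, Psmc2, Psmc6, Psmd2 and Psmd4 and the lid genes Psmd6, Psmd11 and Psmd12. The GC box lay in 20 (55.6%), against 35.4% of all genes. The antioxidant response element core lay in 5 (13.9%), namely Psmb5, Psmb6, Psmc6, Psmd9 and Psmd12, against 11.5%. The CCAAT box lay in 13 (36.1%), against 37.5%. In the stretches shown, the Ets motif began 45 bases before the start of Psmd6, 125 before that of Psmd4 and 17 before that of Psmd12. The motifs were chosen with the values of these genes known, and a match describes letters and not a bound factor.

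Replacing part of the glucose with galactose did not move any of the 43 genes past the threshold. After Benjamini-Hochberg adjustment of limma's p over 18649 genes, 0 of the 43 passed 0.05, the lowest adjusted p among them being 0.999, and 0% of all genes tested did so. At an unadjusted p under 0.05, the interferon-inducible activator Psme1 had a lower mean in GLU+GAL and Psmf1, an inhibitor of the core, a higher one. That is 1 of 43 lower, against 2.66% of all genes, and 1 of 43 higher, against 1.65%, or 803 genes in all by the same test. The estimates were tight: the median standard error of the 43 genes was 0.058, and every 95% confidence interval lay between -0.28 and 0.30 on the log2 scale. The median difference was -0.041, beside 0.0013 over all genes.

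**Figure D1:**
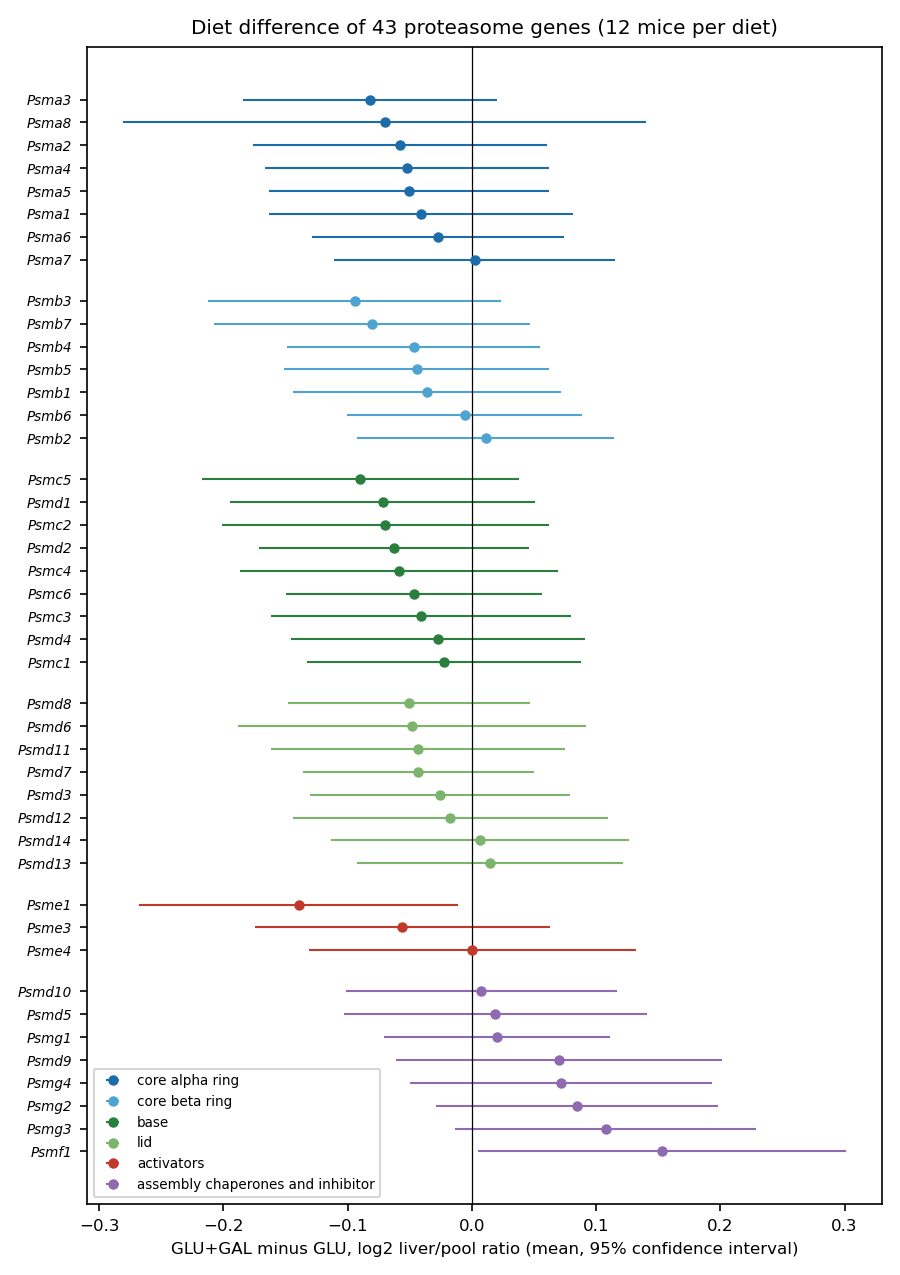
Difference between diets (GLU+GAL minus GLU, log2 ratio of liver over pool) for each of the 43 genes, coloured by role, with points at the mean difference and bars for the 95% confidence interval of limma. The core, base and lid points lie between -0.094 and 0.015, the intervals of Psme1 and Psmf1 alone do not cross 0, and all 8 chaperones and inhibitors lie above 0.

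By role, the core, base and lid genes leaned slightly down and the chaperones slightly up. The mean was lower in GLU+GAL for 28 of 32 core, base and lid genes, against 49.2% of all genes, with a median difference of -0.045. In Agilent's processed signals 18 of 32 were lower, but all genes shifted there, to a median of 0.041 with 32.7% lower, and 28 of the 32 lay below that median, a count equal to that with loess. With median centring 20 of 32 were lower and 17 lay below the median of all genes, -0.0026, and in the authors' value table the counts were 14 lower and 16 below the median of all genes, 0.0125. Over all 43 genes, 30 were lower and 31 lay below the median of all genes with loess, 20 and 30 in the processed signals, 22 and 19 with median centring and 15 and 17 in the value table. Within slides 1, 2 and 3, 23, 18 and 28 of the 32 were lower, and 21, 13 and 31 lay below the median of all genes. All 8 chaperones and inhibitors had a higher mean in GLU+GAL, with a median difference of 0.071, here and under each of the 7 other background and normalisation settings. Within slides this held for 5, 8 and 6 of the 8.

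Among the alpha subunits, Psma3, which forms part of the outer ring that gates the core, had the smallest p. Its log2 ratio ran from -0.27 through a median of -0.093 to 0.0089 in GLU and from -0.43 through -0.20 to 0.042 in GLU+GAL, a difference of -0.082 (SE 0.050, limma p = 0.11). The groups overlapped, and the value of 9 of the 12 galactose-fed mice was under the GLU mean. Psma8 varied most between mice, from -0.40 through -0.16 to 0.29 in GLU and from -0.57 through -0.24 to 0.52 in GLU+GAL, with a difference of -0.070 (SE 0.10, limma p = 0.50). The lowest and the highest of the 24 mice were GLU+GAL 11 and GLU+GAL 4. Without single mice the difference ran from -0.13 (without GLU+GAL 4) to -0.034 (without GLU 4). The other 6 alpha genes differed by -0.058 (Psma2) to 0.0023 (Psma7).

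In the beta ring, Psmb3, a structural subunit, had the smallest p and Psmb7, which carries the trypsin-like site, the largest spread. Psmb3 ran from -0.066 through 0.14 to 0.36 in GLU and from -0.21 through 0.025 to 0.30 in GLU+GAL, a difference of -0.094 (SE 0.057, limma p = 0.11). Psmb7 ran from 0.027 through 0.21 to 0.48 in GLU and from -0.081 through 0.15 to 0.51 in GLU+GAL, a difference of -0.080 (SE 0.062, limma p = 0.21). In both genes the highest GLU+GAL mouse was number 6, and the groups overlapped over most of their range. Psmb5, the chymotrypsin-like subunit and the main target of proteasome inhibitor drugs, ran from -0.077 through 0.095 to 0.25 in GLU and from -0.16 through 0.063 to 0.27 in GLU+GAL (difference -0.044, SE 0.052, limma p = 0.40). Psmb6, the caspase-like subunit, had medians of -0.029 and -0.049 and a difference of -0.0059 (SE 0.046, limma p = 0.90), with a 95% confidence interval from -0.10 to 0.089 and values from -0.031 to 0.014 when single mice were left out. Signs differed between slides: the difference of Psmb5 was -0.21 within slide 1 and 0.060 within slide 2. That of Psmb6 was 0.076 within slide 2 and -0.062 within slide 3.

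All 9 base genes had lower means in GLU+GAL, against 49.2% of all genes, with differences from -0.090 to -0.022. None had a p under 0.05. With median centring the mean was lower in 6 of 9, and in the authors' value table in 5. In the processed signals it was lower in 7, and all 9 lay below the median of all genes there. Within slides 1, 2 and 3 it was lower in 6, 5 and 9. Psmc5, one of the ATPases, had the smallest p: it ran from 0.038 through 0.48 to 0.55 in GLU and from 0.0020 through 0.34 to 0.55 in GLU+GAL, a difference of -0.090 (SE 0.062, limma p = 0.16). Without mouse GLU 3, the lowest of its diet, the difference was -0.12 (limma p = 0.034). Psmc2, another ATPase, varied most, from -0.46 through -0.22 to 0.014 in GLU and from -0.67 through -0.26 to 0.019 in GLU+GAL (difference -0.070, SE 0.064, limma p = 0.29). Its lowest value belonged to GLU+GAL 3 and its highest to GLU+GAL 6, a pattern found in many subunits, and without GLU+GAL 3 the difference was -0.033.

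In the lid, the mean was lower in 6 of 8 genes, against 49.2% of all genes, with differences down to -0.051. With median centring and in the authors' value table it was lower in 4 of 8. Psmd8 ran from -0.029 through 0.22 to 0.49 in GLU and from 0.093 through 0.15 to 0.32 in GLU+GAL, a difference of -0.051 (SE 0.048, limma p = 0.30), or -0.027 without GLU 9. Psmd6 varied most, from -0.41 through -0.30 to 0.074 in GLU and from -0.71 through -0.30 to 0.076 in GLU+GAL (difference -0.048, SE 0.068, limma p = 0.49). Without GLU+GAL 3, its lowest mouse, the difference was -0.010, and without GLU+GAL 6, its highest, -0.082. The deubiquitinase gene Psmd14 differed by 0.0065 (SE 0.059). None of these groups separated.

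The activators open the gate of the core, and of their 3 genes Psme1 had a p under 0.05; the genes' differences were not tested against each other. Psme1 ran from 0.0069 through 0.28 to 0.69 in GLU and from -0.058 through 0.12 to 0.31 in GLU+GAL. The highest value was that of GLU 11, and 9 of the 12 galactose-fed mice were under the GLU mean. The difference was -0.14 (SE 0.063, 95% confidence interval -0.27 to -0.011), a level 0.908 times that of GLU (limma p = 0.035, adjusted p = 0.999). The p was under 0.05 in 18 of 24 fits that each left out 1 mouse. It was not without GLU 3, GLU 9, GLU 11, GLU+GAL 2, GLU+GAL 5 or GLU+GAL 7, with the difference between -0.16 and -0.10 over all 24 fits, and it was 0.13 in the processed signals, 0.30 with median centring, 0.067 in Cy5 alone and 0.28 in the authors' value table. Within slides 1, 2 and 3 the difference was -0.15, -0.12 and -0.15. The probe lies at chr14:56200194-56200253 in build mm9, as the scanner files give it.

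Psme3, which forms a nuclear activator, ran from 0.54 through 0.86 to 1.08 in GLU and from 0.49 through 0.83 to 0.97 in GLU+GAL (difference -0.056, SE 0.058, limma p = 0.34), or -0.029 without GLU+GAL 4. Psme4, the large single-chain activator PA200, ran from -0.39 through -0.15 to 0.17 in GLU and from -0.42 through -0.18 to -0.0018 in GLU+GAL, with a difference of 0.00024 (SE 0.064, 95% confidence interval -0.13 to 0.13). Neither gene separated the diets.

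Psmf1 had both the smallest p and the largest spread among the chaperones and inhibitors. It ran from -0.38 through -0.19 to 0.078 in GLU and from -0.32 through 0.0082 to 0.32 in GLU+GAL. The difference was 0.15 (SE 0.072, limma p = 0.043, adjusted p = 0.999), a level 1.11 times that of GLU, and 3 of the 12 galactose-fed mice were under the GLU mean. Its p was under 0.05 in 10 of 24 fits that left out 1 mouse, and GLU+GAL 6, the highest mouse, gave the highest p, 0.089, when left out. The p was 0.12 with median centring, 0.054 with scaling between arrays and 0.061 when probes were averaged, and the differences within slides 1, 2 and 3 were 0.053, 0.24 and 0.16. Another probe of Psmf1 gave a difference of 0.055 and correlated with the first at r = 0.14 over mice. Psmg3, a chaperone of the alpha ring, differed by 0.11 (SE 0.059, limma p = 0.079), and Psmd10, Psmd5 and Psmd9, chaperones of the base, by 0.0076, 0.019 and 0.070.

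**Figure D2:**
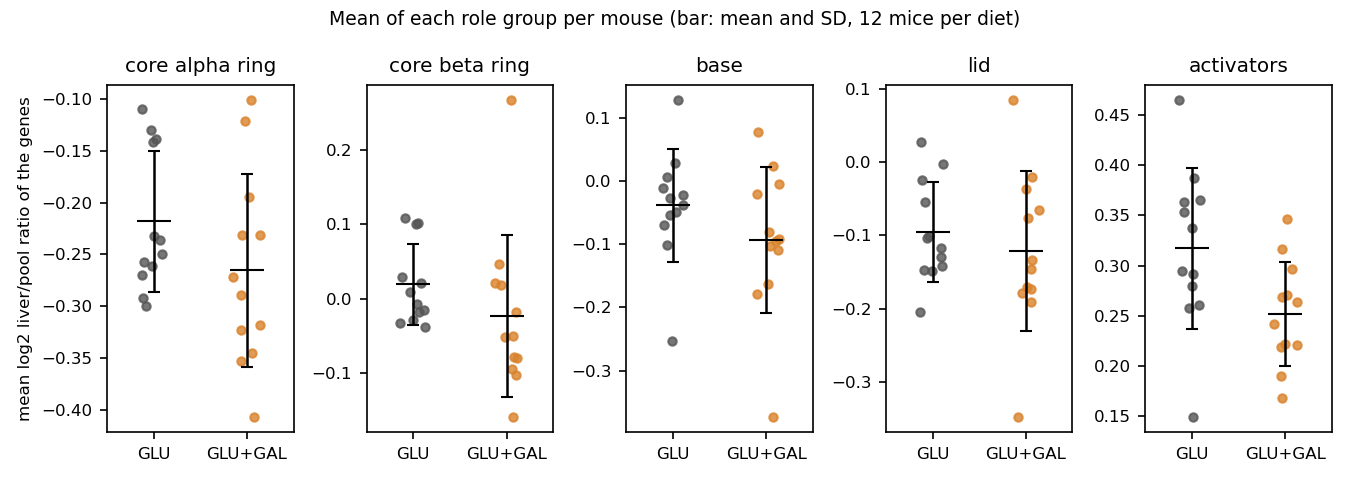
Mean log2 ratio of liver over pool for the genes of 5 role groups, 1 point per mouse, with a bar at the mean and its SD for 12 mice per diet, and a vertical scale of its own for each group. The diets overlap in each panel, with GLU+GAL 3 lowest and GLU+GAL 6 highest of their diet in the 4 core, base and lid panels.

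Averaged over the 32 core, base and lid genes, the log2 ratio was -0.085 ± 0.053 (SD, n = 12) in GLU and -0.13 ± 0.099 (SD, n = 12) in GLU+GAL. The range was -0.19 to 0.0085 in GLU and -0.33 to 0.076 in GLU+GAL, so the second diet held both the lowest and the highest mouse. By role, the means were -0.22 and -0.27 for the alpha ring, 0.019 and -0.023 for the beta ring, -0.038 and -0.093 for the base and -0.096 and -0.12 for the lid, in GLU and GLU+GAL respectively. Each of these differences was smaller than the SD between mice of a diet. The activators averaged 0.32 ± 0.080 (SD, n = 12) and 0.25 ± 0.052 (SD, n = 12). By slide, the GLU+GAL mean over the 32 genes lay below that of GLU on all 3 slides, at -0.14 against -0.095, -0.068 against -0.054 and -0.18 against -0.11. The median difference of all genes on these slides was -0.0048, -0.015 and 0.025, and 21, 13 and 31 of the 32 lay below it. Relative to all genes, the 32 were therefore not lower on slide 2.

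The pair of extreme mice stood out gene by gene. GLU+GAL 3 was the lowest of 24 mice for 20 of the 32 genes and below the median for 31. GLU+GAL 6 was the highest for 14, and GLU 5 for 7.

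**Figure D3:**
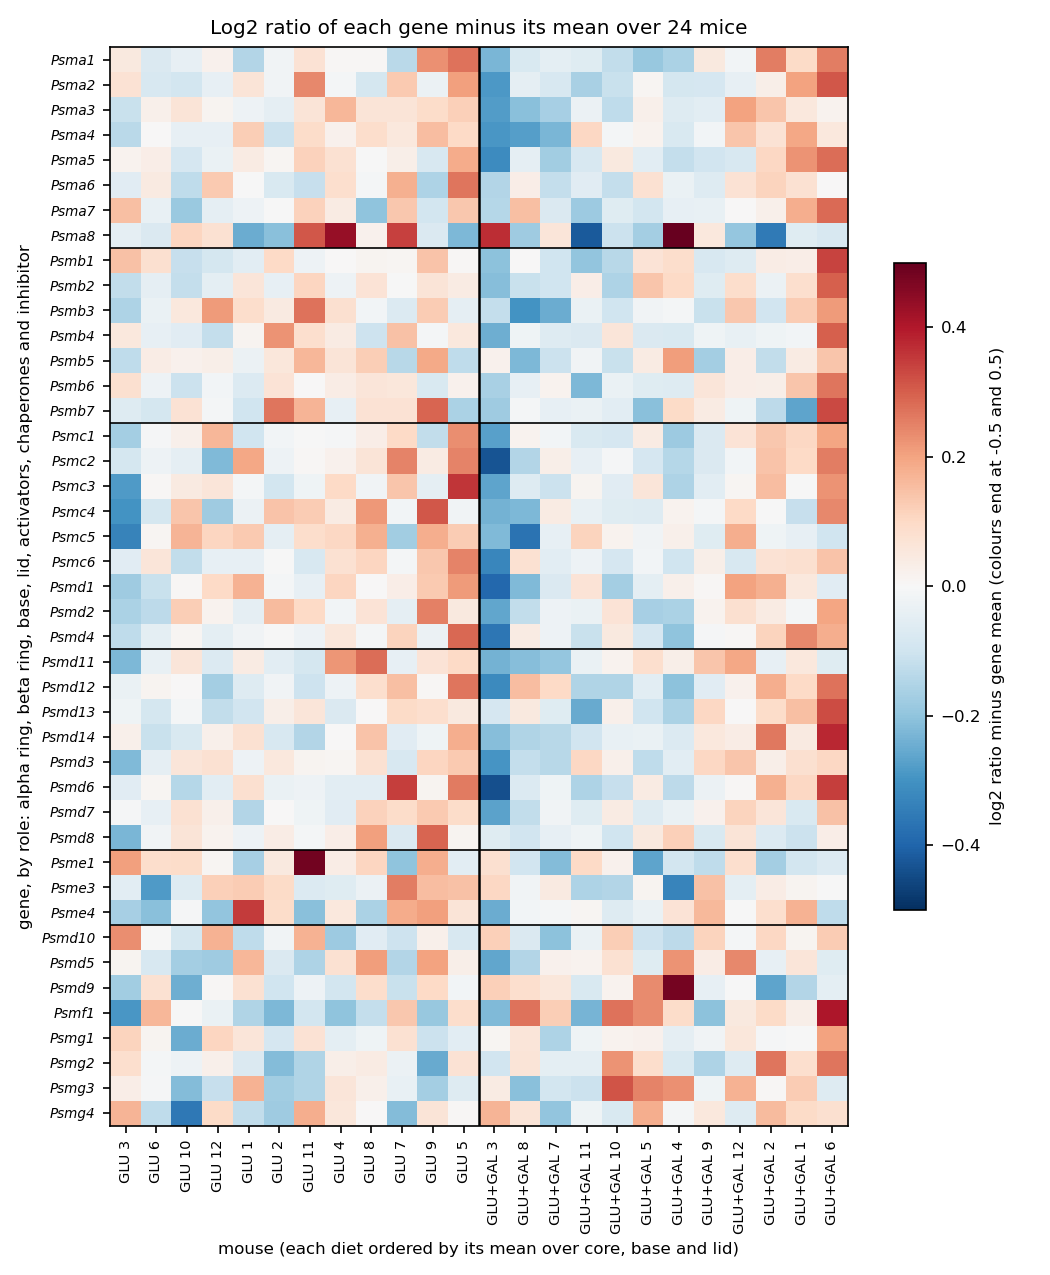
Log2 ratio of each of the 43 genes (rows, by role) in each of 24 mice (columns), minus the mean of the gene over the mice, with the mice of each diet ordered by their mean over core, base and lid. GLU+GAL 3 is blue through most of the core, base and lid rows, where it is lowest for 20 of 32 genes. GLU+GAL 6 is red there and highest for 14. In the activator and chaperone rows GLU+GAL 3 is lowest for Psme4 and Psmd5 and GLU+GAL 6 highest for Psmf1 and Psmg1.

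The subunits varied little between mice. The SD within diets had a median of 0.137 over the 43 genes, beside 0.169 over all 18649 genes, and was below the latter in 40 of 43. Psmg1 and Psmd7 had the smallest, 0.095 and 0.098, and Psma8 the largest, 0.267, with Psmf1 at 0.181 and Psmd6 at 0.169. The comparison with all genes was not matched for signal strength. With median centring in place of loess the median SD was 0.214, beside 0.212 over all genes, so that the lower spread of the subunits was absent under that setting.

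Part of the variation between mice was shared among the subunits. After the mean of each diet was removed, the 496 pairs among the 32 core, base and lid genes had a median Pearson r of 0.42 over 24 mice and a median Spearman rho of 0.32, and 425 pairs were positive. The median r of all pairs of genes tested was 0.009. All values come from the same 24 arrays and the same pool, so they share whatever differs between arrays. Without GLU+GAL 3 and GLU+GAL 6, the mice farthest from the median, the median r was 0.23, beside 0.010 for all genes, so a large part of its size rested on them. It was 0.25 within slide 1, 0.43 within slide 2 and 0.51 within slide 3, and 0.24 in Cy5 alone, 0.54 in the authors' value table, 0.66 in the processed signals and 0.80 with median centring, where all genes had -0.001, 0.008, 0.188 and 0.272.

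The median r was positive within and between alpha ring, beta ring, base and lid. Base genes correlated with each other at a median r of 0.49, positive in 36 of 36 pairs, and with lid genes at 0.51, positive in 68 of 72. The lid gave 0.47, the alpha ring 0.44 and the beta ring 0.42. Between alpha ring and base the median r was 0.47, while between alpha and beta ring, which form the same barrel, it was 0.28. These medians were not tested against each other. The closest pairs were Psmc2 with Psmd6 (r = 0.88), Psmc1 with Psmc3 (r = 0.86) and Psma2 with Psma5 (r = 0.85).

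Single genes differed widely in how closely they followed the rest. Against the mean of the other core, base and lid genes, r was 0.78 for Psmd6, 0.77 for Psmc2 and Psmb2, 0.76 for Psmd4 and 0.74 for Psma3. At the other end were Psmb5 (r = 0.23), Psmb7 (r = 0.31), Psmd8 (r = 0.31) and Psmc5 (r = 0.33). Psma8 did not follow them (r = -0.28), and without it the median r of the pairs was 0.45. Of the chaperones and inhibitors, Psmf1 reached r = 0.42 (Spearman rho 0.14), Psmd5 0.33 (rho 0.41) and Psmd9 -0.20 (rho -0.19). The chaperones and inhibitors had a median r of 0.10 among themselves.

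**Figure D4:**
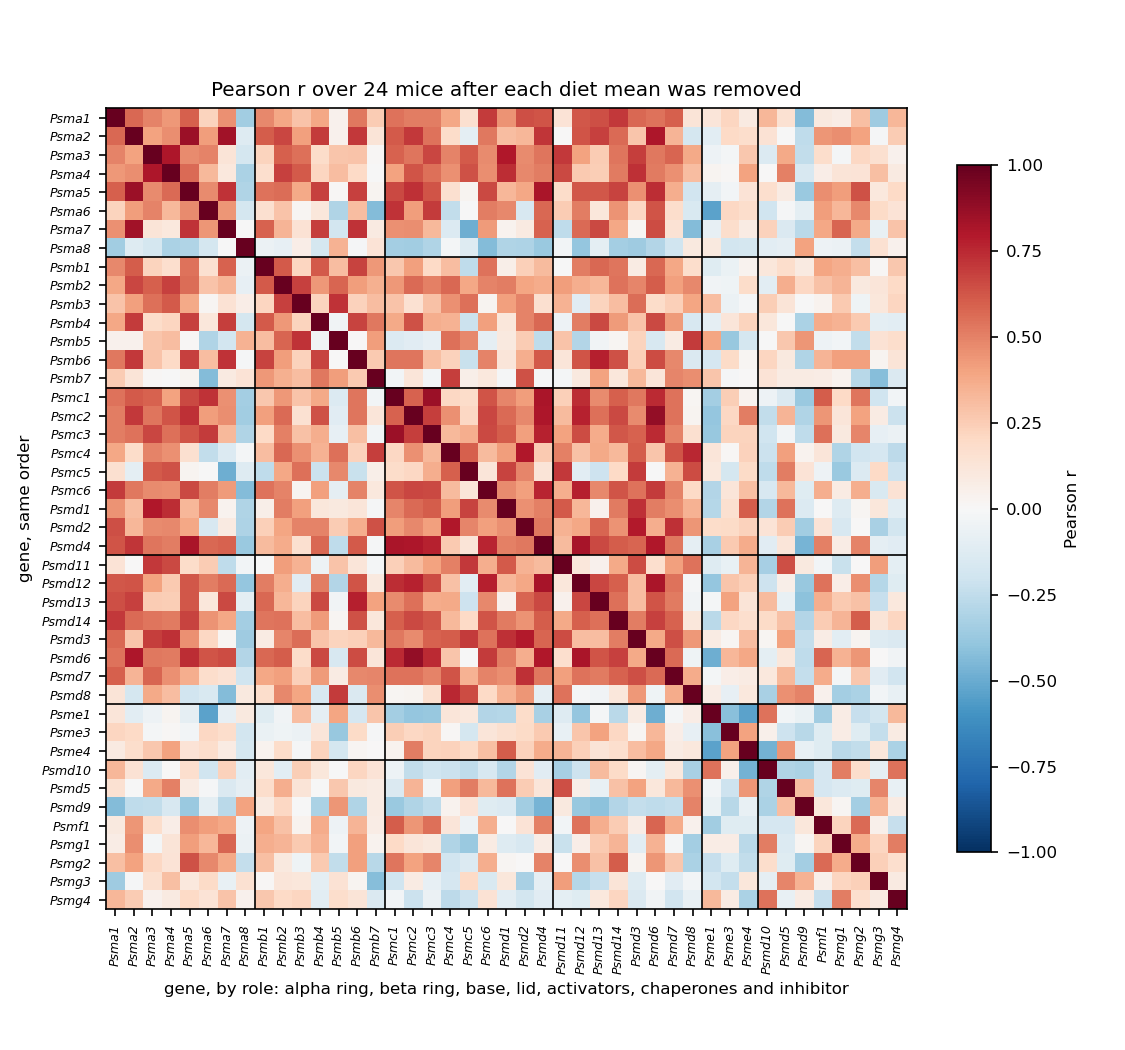
Pearson r between all pairs of the 43 genes over 24 mice after the mean of each diet was removed, with genes by role and lines between the roles. The core, base and lid block is mostly red, with 425 of 496 pairs above 0, apart from the Psma8 row, and the activators and chaperones outside it are pale or mixed.

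Second probes bear on these values. The array carried 36 further probes of 25 of the 43 genes above background. The 23 that were designed on a RefSeq mRNA correlated with the chosen probe at a median r of 0.59 over mice, and the other 13 at -0.084. The difference between diets had another sign than that of the chosen probe in 7 of the 23 and 6 of the 13. One of the 36 had a p under 0.05, a probe of Psma4 at -0.11.

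The 10 genes outside the family that followed its per-mouse mean most closely, out of 18459, were led by Ran, the GTPase of nuclear transport, with r = 0.86 and Spearman rho = 0.78. The others were an array feature without a gene name (NAP094260-001, r = 0.84), Gps1, a subunit of the COP9 signalosome (r = 0.80), Cox18 and Rexo2, which act in mitochondria (both r = 0.78), Cct3, a subunit of the CCT chaperonin (r = 0.76), Ccdc47 (r = 0.75), Skp1a, an adaptor of SCF ubiquitin ligases (r = 0.75), a second unnamed feature (NAP063195-1, r = 0.73) and Dnajb4, a co-chaperone (r = 0.73). Without GLU+GAL 3 and GLU+GAL 6, r was 0.72 for Ran, 0.65 for Gps1, 0.58 for Cct3 and 0.47 for Dnajb4. These genes were picked from all genes for their r, which therefore describes these mice only.

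Partners of the proteasome followed it to different degrees. Pomp, which matures the core, had r = 0.70, the shuttle factors Rad23b and Ubqln1 r = 0.69 and 0.65, the ubiquitin receptor Adrm1 r = 0.60 and the deubiquitinase Usp14 r = 0.55. Nfe2l1 had r = 0.25 and its relative Nfe2l2 0.034. These values are correlations with the per-mouse mean of the 32 genes. On that measure the 8 CCT chaperonin genes ran from 0.46 (Cct4) to 0.76 (Cct3). The 9 signalosome genes ran from -0.12 (Cops8) to 0.80 (Gps1). Over gene-by-gene pairs with the 32 genes, an unlike measure, the median r was 0.36 for the chaperonin and 0.16 for the signalosome. Against the per-mouse mean, r was -0.13 for the share of Cy5 spots above background, 0.043 for that of Cy3 spots, 0.17 for the summed hepatocyte markers and -0.45 for the stellate cell markers; their part in the shared variation was not tested.

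In the listed pathways around these genes, the share of genes with an unadjusted p under 0.05 was near the 4.31% of all genes tested. Of 9 other components and partners, Pomp had a p under 0.05 (difference -0.097, SE 0.046, limma p = 0.041). Of 11 ubiquitin and shuttle genes, Ubb, a ubiquitin gene, did (difference -0.16, SE 0.068, limma p = 0.029), of 9 signalosome genes Cops8 (difference -0.13, SE 0.055, limma p = 0.028), and of 12 genes of Nrf1 activation and 8 of the chaperonin none. No adjusted p of these passed 0.05. The lists had medians of -0.020, -0.016, 0.0022, 0.0093 and -0.024 in the same order.

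The 3 inducible subunits were lower in GLU+GAL in the mean. Psmb8 ran from -0.17 through 0.083 to 0.93 in GLU and from -0.39 through -0.049 to 0.27 in GLU+GAL (difference -0.21, SE 0.098, limma p = 0.041). Psmb9 differed by -0.24 (SE 0.14, limma p = 0.095), Psmb10 by -0.20 (SE 0.078, limma p = 0.017) and Psme2b by -0.16 (SE 0.063, limma p = 0.014), each with an adjusted p of 0.999. The highest mouse was GLU 11 for all 4 in GLU. Another probe of Psme2b gave a difference of -0.10 (SE 0.058, limma p = 0.091) and correlated with the first at r = 0.65 over mice. Because Psmb8, Psmb9 and Psmb10 replace Psmb5, Psmb6 and Psmb7, each was also set against its counterpart in the same mouse.

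The balance of inducible over constitutive subunit did not separate the diets. Psmb8 minus Psmb5 ran from -0.18 through -0.067 to 0.70 in GLU and from -0.28 through -0.15 to 0.22 in GLU+GAL, a difference of -0.17 (2-sided permutation test, p = 0.097, adjusted over 3 pairs 0.239), and 9 of the 12 galactose-fed mice were under the GLU mean. For Psmb9 minus Psmb6 the difference was -0.23 (permutation p = 0.159, adjusted 0.239), with 10 of 12 under it, and for Psmb10 minus Psmb7 it was -0.12 (permutation p = 0.249, adjusted 0.249), with 8 of 12 under it. Without GLU 11 the differences were -0.11, -0.11 and -0.070. Within slide 1 all 3 had the opposite sign, at 0.056, 0.051 and 0.061, against -0.39, -0.58 and -0.26 within slide 2 and -0.16, -0.16 and -0.16 within slide 3.

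From mouse to mouse, Psme1 went with the inducible subunits. The relations tested here were among 6 chosen after their values were seen, so their p-values describe these mice and test no relation named beforehand. With the mean of each diet removed, its Pearson r over 24 mice was 0.77 with Psmb8 (Spearman rho 0.63, permutation p = 9e-05 and 0.00158, adjusted 0.00054 and 0.00948), against -0.15 with the mean of the core, base and lid genes. It was 0.75 with Psmb9 (rho 0.58, permutation p = 0.00028 and 0.00341), 0.74 with Psmb10 (rho 0.54, permutation p = 0.00034 and 0.00755) and 0.63 with Psme2b (rho 0.45, permutation p = 0.00227 and 0.0319). Without GLU 11 and GLU 7, the mice farthest from the median of Psme1, r was 0.56, 0.55, 0.55 and 0.47 in the same order. Within slides 1, 2 and 3, r with Psmb8 was 0.62, 0.85 and 0.71 and r with Psme2b -0.079, 0.80 and 0.83.

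With the other activators the sign was opposite. Psme1 gave r = -0.54 with Psme4 (rho -0.45, permutation p = 0.0115 and 0.033, adjusted 0.0138 and 0.033) and r = -0.42 with Psme3 (rho -0.52, permutation p = 0.0495 and 0.0128, adjusted 0.0495 and 0.0191). Without GLU 11 and GLU 7 these were -0.41 and -0.31. Within slides 1, 2 and 3 they were 0.14, -0.75 and -0.58 for Psme4 and -0.36, -0.82 and 0.17 for Psme3, so neither sign held on every slide. The 6 relations were chosen after their values were seen, and adjusted values are over the 6. Permutations were drawn within diets and took no account of the slides.

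Markers of some other cell types varied with Psme1. Its r was 0.62 with the mean of 21 interferon-inducible genes, 0.49 with that of 13 Kupffer cell markers, 0.47 with that of the 5 of 7 T and NK cell markers above background and 0.46 with the share of Cy3 spots above background. B cell, neutrophil and stellate cell markers gave 0.41, 0.35 and 0.23, and hepatocyte markers -0.38. For endothelial, erythroid, cholangiocyte, skeletal muscle, and kidney and adrenal markers r lay between -0.082 and 0.13. Of the interferon-inducible genes, 21 of 21 had a lower mean in GLU+GAL, 9 with an unadjusted p under 0.05, and of the Kupffer markers 12 of 13, 6 with such a p, none with an adjusted p under 0.05. Over all genes, 49.2% had a lower mean and 2.66% a lower mean with such a p. Of the hepatocyte markers 9 of 10 had a lower mean, 4 with such a p, and of the B cell markers 3 of 3, none with such a p. The mean of the Kupffer markers ranged from -0.089 to 0.73 in GLU and from -0.49 to 0.34 in GLU+GAL, and that of the interferon-inducible genes from -0.33 to 0.85 and from -0.56 to 0.092. GLU 11 was the highest GLU mouse in both. Their part in the values of Psme1 was not tested.

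**Figure D5:**
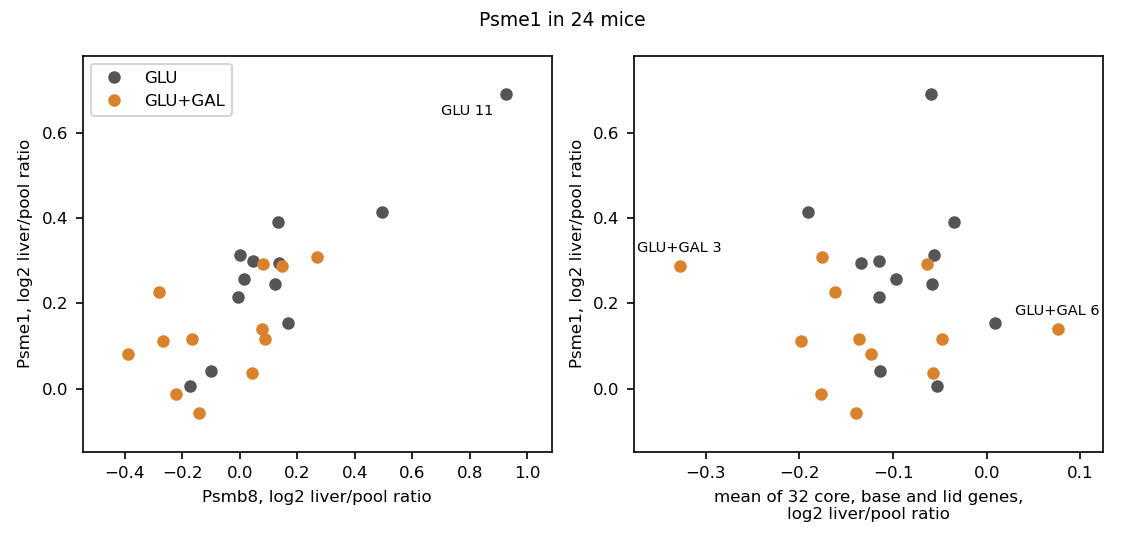
Log2 ratio of Psme1 in each of 24 mice (vertical axes) against that of Psmb8 (left) and against the mean of the 32 core, base and lid genes (right), coloured by diet. Psme1 is higher where Psmb8 is higher, with GLU 11 at the top right (r = 0.77 after the diet means were removed), and shows no such order on the right (r = -0.15).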

How the data were processed

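Members and lists were chosen with earlier results of these data known. Agilent 2-colour scanner files were deposited by the authors, with spot intensity values that the submitters' processing notes credit to Feature Extraction 10.7.3.1. The authors also deposited a table of log2 values for 29287 spots, with no scaling stated in the sources used. It served as an alternative. Outlier and background flags are other values of the scanner files, per the file headers.

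Of 62976 spots, 59305 were not controls. Intensities were background-corrected by normexp (offset 50) and normalised within arrays by loess in limma 3.58.1 (R 4.3.3). Control spots had weight 0, outlier spots were left out, and replicate spots were averaged by probe. The brightest probe stood for a gene, if above background on 6 or more arrays of either diet. Diets were compared by limma (lmFit, eBayes) with Benjamini-Hochberg adjustment over all genes. P-values measure the spread between mice. Correlations used values with the diet means removed, and single relations were tested with 100000 permutations. The rule for named genes took, per role, the smallest p and the largest SD, all activators, Psmb5 to Psmb7 with their replacements, listed pathway genes with an unadjusted p under 0.05 and the 10 genes most like the family. Each of 3 slides held 4 arrays per diet. The fit was tested on simulated data. Array number limits the precision. Alternatives covered background, normalisation, channel, filter, probe rule, variance model, blocks, slides and left-out mice. Figures used matplotlib 3.10.9.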

Additional observations from a re-analysis of the deposited data

How the results depend on the processing

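Under 42 alternatives the median difference of the 43 genes, -0.041, ran from -0.062 within slide 3 to 0.021 in the authors' value table. The median over all genes was 0.025 and 0.0125 there. In the processed signals both medians were above 0, at 0.0022 and 0.041. No alternative moved the difference by more than the SD between mice, 0.064. That SD is larger than the difference itself, so it cannot show that the sign is stable, and the sign did change in the value table and the processed signals. The number of the 43 genes at an unadjusted p under 0.05, 2 with all mice, was 0 with median centring and within slide 3, 1 with scaling between arrays and in Cy5 alone, and 0 to 3 when each mouse was left out in turn. It was 2 with the replicate block, in which p was 0.010 for Psme1 and 0.0086 for Psmf1; the lowest adjusted p of the 43 genes was then 0.593. Whether the replicate numbers pair the mice was not settled by these data. Deviations of equally numbered mice correlated at -0.38 to 0.52, above 0.1 in 8 of 12 numbers. The count of genes past the adjusted threshold was 0 to 1 when each mouse was left out, with 1 without GLU 3, and 0 under the other alternatives. The median r of the core, base and lid pairs, 0.42, moved by more than its jackknife SE of 0.13 in the processed signals (0.66), with median centring (0.80), in Cy5 alone (0.24), in the value table (0.54), within slide 1 (0.25) and without both extreme mice (0.23, chosen after seeing the data). It ran from 0.32 without GLU+GAL 3 to 0.44 when each mouse was left out. The SD between mice, 0.137, was 0.214 with median centring, an alternative chosen after seeing the data. The 3 balances of inducible over constitutive subunit reversed within slide 1, to 0.056 for Psmb8, 0.051 for Psmb9 and 0.061 for Psmb10. The cause was not tested. Of the named genes' differences, that of Psmb5 within slide 1 (-0.21, against 0.060 within slide 2) moved by more than its SD between mice.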
